A study of Mus musculus with 6 samples.

Results

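The genes described here encode the proteins of the mitochondrial ribosome. They were taken as every row of the expression table whose symbol began with Mrpl (mitochondrial ribosomal protein of the large subunit) or Mrps (small subunit) followed by a number, leaving out symbols with a hyphen. This gave 75 of the 14647 genes in the table, 48 with an Mrpl symbol and 27 with an Mrps symbol. RNA was sequenced from the pharyngeal arch region of mouse embryos at embryonic day (E) 9.5, in 3 *Pax9*-null (*Pax9*-/-) and 3 wild-type libraries, each from its own stage-matched embryo on a C57Bl/6J background. Male and female embryos were mixed, and no embryo received a treatment. *Pax9* encodes a paired-box transcription factor of the pharyngeal endoderm that is lost from every cell of the null embryos, whereas the dissected region, from the junction of the first and second arches to the base of the heart, holds endoderm, mesenchyme, vessels and blood. The study's question was how loss of *Pax9* alters transcription in this tissue.

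The mitochondrial ribosome translates the few proteins encoded in mitochondrial DNA, all of them parts of the oxidative phosphorylation complexes. Its ribosomal RNAs are made inside the organelle, whereas its proteins are encoded in the nucleus, made in the cytosol and imported. Some of these proteins have a counterpart in the bacterial ribosome and others are found only in mitochondria. Because the tissue was sequenced in bulk, a change in the number of cells of a type cannot be told apart from a change in RNA per cell.

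Values were log2 RPKM (read counts scaled by gene length and library size, on a log2 scale), and reads recovered from them numbered 11667937 to 12699865 per library over the listed genes. *Pax9* itself was at -0.43, -0.63 and -0.59 log2 RPKM in the 3 *Pax9*-null libraries and at 0.63, 0.71 and 0.96 in the 3 wild-type libraries, so the libraries fell on the side their labels give. Of the lists of cell type markers, summed erythroid markers lay between 2390.6 and 2495.0 RPKM in the wild-type libraries, at 2636.3 in *Pax9*-null replicate 2 and at 4889.2 and 4449.1 in *Pax9*-null replicates 1 and 3. Summed cardiomyocyte markers lay between 1133.7 and 1495.9 RPKM in 5 libraries and at 78.3 in wild-type replicate 3. Sums for pharyngeal endoderm (98.5 to 108.8 against 80.2 to 102.0) and neural crest (88.9 to 94.7 against 82.5 to 93.0) overlapped between the genotypes. Those for neural tube (67.5 to 85.0 against 76.1 to 158.3) and endothelium (56.8 to 68.5 against 64.1 to 103.4) overlapped as well. Abundant markers weigh most in such sums, *Sox2* and *Epcam* for endoderm and *Twist1* for neural crest. By mean log2 level, 5 of 8 endoderm and 2 of 8 neural crest markers were higher in the *Pax9*-null libraries. By the limma test described below, *Twist1* was called higher and *Sox10* lower of 8 neural crest markers. *Cdh5* and *Tie1* of 7 endothelial markers and *Elavl3* of 8 neural tube markers were called lower, and 0 of either list higher. Of 8 endoderm markers 0 were called. Over all tested genes 14.7% rose and 12% fell. Without *Pax9*-null replicate 1 or 3, 0 of these markers were called. At an unadjusted p under 0.05, 2 endoderm markers were lower and 0 higher, and voom on the recovered reads called 1 lower and 0 higher. The only markers of these lists below a mean of 1 RPKM were *Pax1* of the endoderm and *Tfap2a* of the neural crest.

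On the deposited values, the mitochondrial ribosomal protein genes were higher in the *Pax9*-null tissue far more often than lower. By limma on the log2 values, with Benjamini-Hochberg adjustment over the 13547 genes that averaged 0.5 RPKM or more and a call at an adjusted p of at most 0.1, 21 of the 75 members (28.0%) rose and 0 fell, whereas 14.7% of all tested genes rose and 12% fell. At an unadjusted p under 0.05, 25 members were higher and 0 lower, and voom on the recovered reads also called 21 higher and 0 lower. The fitted difference was above 0 in 65 members, with a median of 0.22 on the log2 scale beside -0.00 over all tested genes. The called rises were small, between 1.19-fold and 1.55-fold, against standard errors of 0.07 to 0.19 log2 units across the members. At an adjusted p of at most 0.05, 3 of the 75 members were higher, namely *Mrpl1*, *Mrpl32* and *Mrps18c*. This was a smaller share than the 6.15% of all tested genes called higher at that threshold.

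The count of calls depended on single libraries and on trends that run through the whole data set. Without *Pax9*-null replicate 1 or without *Pax9*-null replicate 3, 0 members were called, with 301 and 175 genes called in all. Without wild-type replicate 1 or without wild-type replicate 3, 6 members were called in each fit. Without *Pax9*-null replicate 2 the count was 26, and without wild-type replicate 2 it was 20, and no member was called in all 6 of these fits. When each library's trends with annotated exon length and GC content were removed, 0 members rose and 2 fell, beside 1.84% and 1.96% of all tested genes, and the median difference of the members was 0.01. With the gene lengths recovered from the deposited values in place of the annotated ones, 0 rose and 6 fell, beside 2.41% and 3.09%. Unless stated otherwise, values after removal of length and GC trends refer to the annotated lengths. The direction changed less than the calls when a library was left out, with 58 to 70 members above 0 in these fits.

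**Figure D1:**
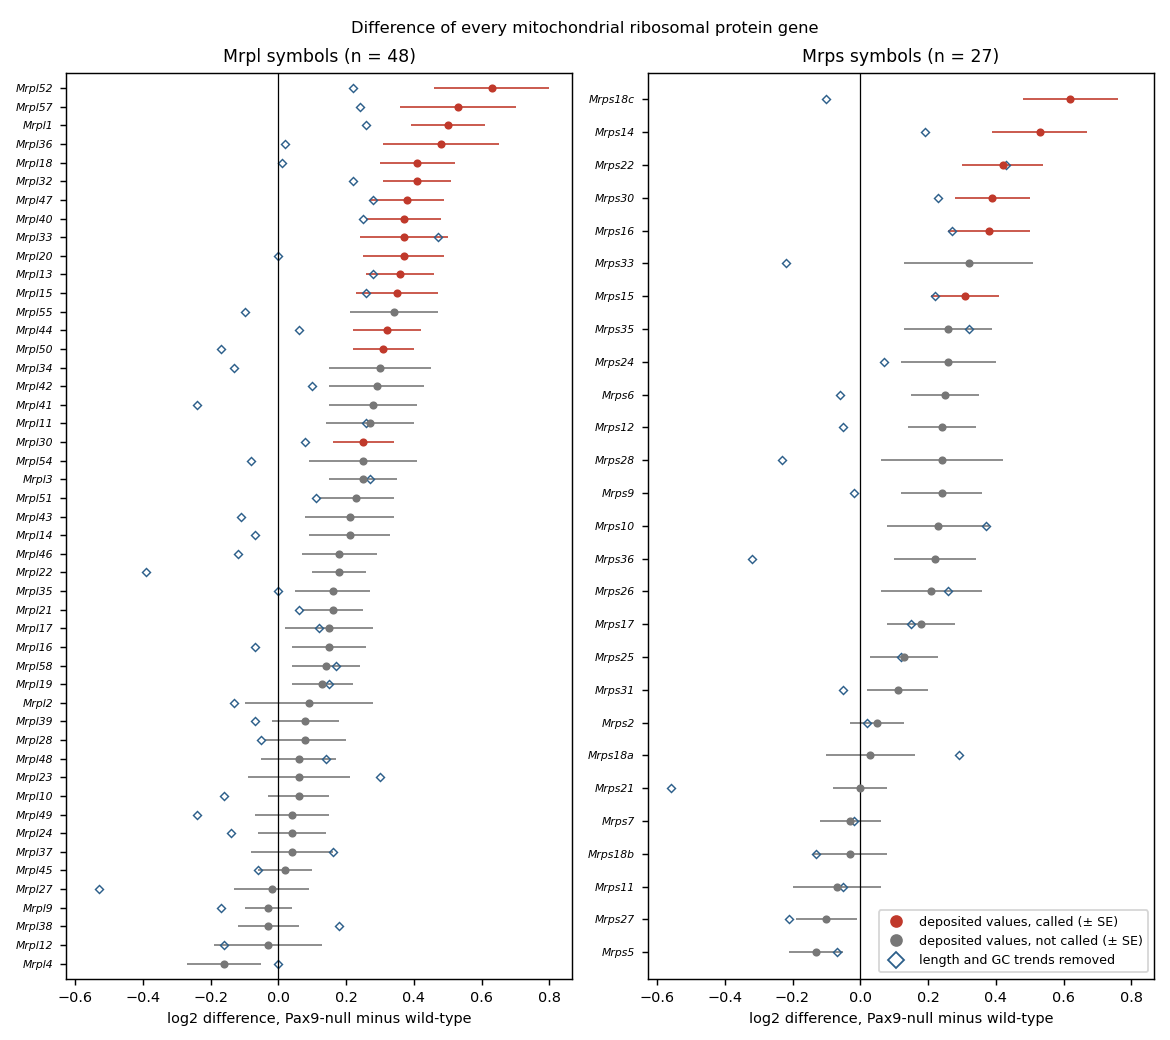
Log2 difference (*Pax9*-null minus wild-type) of each of the 48 Mrpl and 27 Mrps genes, one gene per line. Filled points with bars show the fitted difference ± SE on the deposited values, red where called, and open diamonds the difference after removal of length and GC trends. The filled points lie to the right of 0 for 65 of the 75 genes, and the diamonds for 40.

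By subunit, 15 of the 48 Mrpl genes (31.2%) and 6 of the 27 Mrps genes (22.2%) rose, beside 14.7% of all tested genes. The median difference was 0.21 for the large subunit and 0.23 for the small subunit, or 0.01 and -0.02 after removal of length and GC trends. The differences on the deposited values ran from -0.16 to 0.63 and from -0.13 to 0.62. MRPS30 and MRPS18A sit in the large subunit despite their names, and MRPS36 belongs to the oxoglutarate dehydrogenase complex. With these moved, 16 of 50 large subunit genes and 5 of 24 small subunit genes rose, at medians of 0.21 and 0.23.

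Among proteins with a bacterial counterpart, 10 of 30 in the large subunit and 4 of 16 in the small subunit rose, with medians of 0.19 and 0.24. Among mitochondria-specific proteins, 5 of 18 in the large subunit (27.8%) and 1 of 8 in the small subunit (12.5%) rose, with medians of 0.22 and 0.17. Over all tested genes 14.7% rose. These counts were not tested against each other.

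*Mrpl52* (GRCm38 chr14:54426909-54429756, plus strand), which encodes a mitochondria-specific protein of the large subunit, showed the largest difference of the family. Its level was 5.42, 5.06 and 5.53 log2 RPKM in *Pax9*-null replicates 1 to 3 and 4.43, 4.97 and 4.74 in wild-type replicates 1 to 3. All 3 *Pax9*-null libraries lay above the wild-type libraries, although *Pax9*-null replicate 2 exceeded wild-type replicate 2 by little. The fitted difference was 0.63 ± 0.17 (SE, limma adjusted p = 0.0531), a 1.55-fold rise from a wild-type mean of 26.2 to a *Pax9*-null mean of 40.5 RPKM. *Mrpl57*, another mitochondria-specific protein, stood at 4.04, 3.77 and 4.10 against 3.08, 3.69 and 3.57, a difference of 0.53 ± 0.17 (adjusted p = 0.0793). Its groups did not overlap either, and the gap between wild-type replicate 1 and the other wild-type libraries was wider than the gap between the genotypes. After removal of length and GC trends *Mrpl52* was at 0.22 and *Mrpl57* at 0.24, neither called.

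*Mrpl1* (chr5:96209493-96266727, plus strand) encodes the protein of the mobile stalk beside the exit site for transfer RNA. It was at 4.58, 4.35 and 4.62 log2 RPKM in the *Pax9*-null and 3.90, 4.17 and 3.98 in the wild-type libraries, a rise of 0.50 ± 0.11 (adjusted p = 0.042). *Mrpl32*, whose protein is trimmed by the mitochondrial m-AAA protease before it joins the ribosome, was at 6.41, 6.41 and 6.50 against 5.85, 6.18 and 6.05, a rise of 0.41 ± 0.10 (adjusted p = 0.0464). With trends at the recovered lengths removed, *Mrpl32* turned to -0.47 (adjusted p = 0.0499), a fall. In both genes the *Pax9*-null libraries lay above all wild-type libraries, and *Mrpl32* had the narrowest *Pax9*-null spread of the called members (SD 0.05, n = 3). *Mrpl18*, a protein of the central protuberance, was at 6.64, 6.30 and 6.47 against 5.93, 6.17 and 6.08 (0.41 ± 0.11, adjusted p = 0.0564). After removal of length and GC trends *Mrpl18* was at 0.01 and *Mrpl1* at 0.26, neither called. About 10.1% of the exon sequence of *Mrpl18* overlaps *Tcp1*. The study counted uniquely aligned reads with default settings, and how reads of that stretch were counted was not examined.

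Further rises of the large subunit without overlap between genotypes were seen for *Mrpl47* (0.38 ± 0.11), whose protein lies near the tunnel exit, *Mrpl20* (0.37 ± 0.12) and *Mrpl33* (0.37 ± 0.13). With trends of coding transcripts removed, *Mrpl20* was at -0.13 and *Mrpl33* at -0.48, the latter called lower (adjusted p = 0.0645). *Mrpl33* was also the lowest member of its subunit by mean level, at 2.79, 2.60 and 2.79 against 2.21, 2.55 and 2.29 log2 RPKM. *Mrpl40* (chr16:18872018-18876862, minus strand), whose human orthologue lies in the 22q11 deletion region, rose from a wild-type mean of 5.66 ± 0.13 to 6.03 ± 0.17 (SD, n = 3 each), a difference of 0.37 ± 0.11 (adjusted p = 0.0685). Its *Pax9*-null libraries were at 6.09, 5.84 and 6.15 and its wild-type libraries at 5.55, 5.80 and 5.63. The closest libraries across genotypes were replicate 2 of each. *Mrpl36* was called (0.48 ± 0.17, adjusted p = 0.089) although *Pax9*-null replicate 2, at 6.03, lay below wild-type replicate 2, at 6.07.

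In the small subunit, *Mrps18c* (chr5:100798627-100804471, plus strand), the gene for one of the family's 3 versions of bacterial protein S18, was at 6.07, 5.71 and 5.95 against 5.05, 5.49 and 5.32 log2 RPKM, a rise of 0.62 ± 0.14 (adjusted p = 0.042). Its groups did not overlap. Of the stretches of 50 bases in its exons, 19.2% also occur in other genes, and 23.2% of its exon sequence overlaps *Gm43511*. Its level is therefore less certain. After removal of length and GC trends its difference was -0.10. *Mrps14*, a protein of the head of the subunit, was at 4.96, 4.66 and 4.96 against 4.08, 4.57 and 4.35 (0.53 ± 0.14, adjusted p = 0.0553). *Mrps22*, in which mutations cause a human mitochondrial disease, was at 4.76, 4.52 and 4.85 against 4.14, 4.38 and 4.36 (0.42 ± 0.12, adjusted p = 0.0571). Neither gene overlapped between genotypes. After removal of length and GC trends *Mrps22* was at 0.43 and no longer called (adjusted p = 0.121), and with trends of coding transcripts removed it was at -0.12 (adjusted p = 0.375).

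*Mrps16* (0.38 ± 0.12) and *Mrps15* (0.31 ± 0.10), both with bacterial counterparts, also rose without overlap. With trends at the recovered lengths removed *Mrps16* was called lower (-0.41, adjusted p = 0.0541), and with those of coding transcripts *Mrps15* was at -0.04. *Mrps30* was at 5.83, 5.66 and 5.95 against 5.36, 5.58 and 5.33 (0.39 ± 0.11, adjusted p = 0.0555), and at -0.23 with trends at the recovered lengths removed (not called). The other genes with a misleading Mrps symbol were not called, *Mrps18a* at 0.03 ± 0.13 and *Mrps36* at 0.22 ± 0.12.

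**Figure D2:**
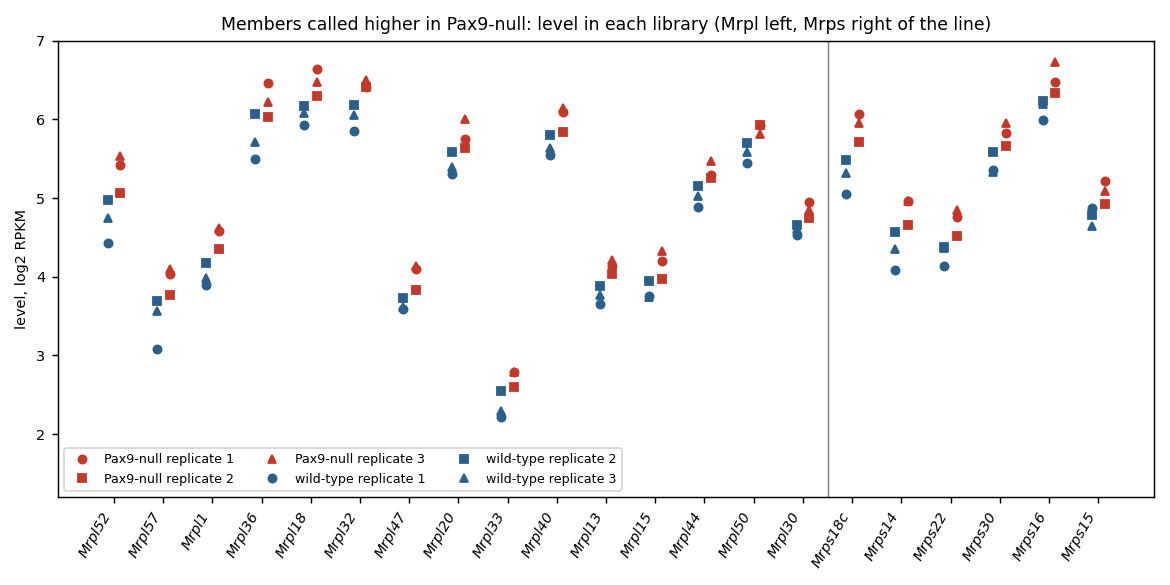
Level in log2 RPKM of the 21 called members in each of the 6 libraries, red for *Pax9*-null and blue for wild-type, with a symbol shape per replicate number. Mrpl genes stand left of the line and Mrps genes right of it. In 20 of the 21 genes every red point is above every blue point, and *Mrpl36* is the exception.

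Among the 54 members that were not called, 10 had a difference below 0. The lowest was *Mrpl4*, whose protein lines the exit tunnel, at 3.68, 3.68 and 3.93 log2 RPKM in the *Pax9*-null and 3.79, 4.01 and 3.97 in the wild-type libraries, a difference of -0.16 ± 0.11 (adjusted p = 0.319). *Mrps5* was the only member whose *Pax9*-null libraries all lay below the wild-type libraries, at 3.67, 3.70 and 3.66 against 3.80, 3.86 and 3.77 (-0.13 ± 0.08, adjusted p = 0.272). In 26 members all *Pax9*-null libraries lay above all wild-type libraries, where 21.8% of tested genes did so and 20.1% lay all below.

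Levels spread widely across the family, although its proteins are built into the same particle. Mean levels ran from 2.0 log2 RPKM for *Mrps10* to 7.17 for *Mrpl42*, with a median of 5.03 for the large and 4.35 for the small subunit. RPKM values depend on the length used to divide by. The lengths recovered from the deposited values ranged from 566 to 8631 bases among members and differed from the annotated exon length in 14 members, 6 of them called. *Mrpl42* was divided by 666 bases where 3682 are annotated, *Mrps16* by 566 where 2875 are, and *Mrpl32* by 768 where 4982 are, so the rank of these genes among the highest rests on those shorter lengths. *Mrpl42* was at 7.55, 7.07 and 7.33 in the *Pax9*-null and 7.12, 7.13 and 6.84 in the wild-type libraries, groups that overlapped (0.29 ± 0.14, adjusted p = 0.187). *Mrps21*, second among the Mrps genes by level, was nearly level between the genotypes at 5.91, 5.76 and 5.94 against 5.83, 5.92 and 5.85 (0.00 ± 0.08). After *Mrpl33* and *Mrps10*, the next lowest of their own subunits were *Mrpl48*, at 2.58, and *Mrps35*, at 2.89. Each member was covered by 218 to 1996 reads per library.

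The members moved together from library to library, within each genotype as well as between them. Measured as the median difference from each gene's wild-type mean, the 75 members stood at 0.22, 0.04 and 0.32 log2 units in *Pax9*-null replicates 1 to 3 and at -0.12, 0.11 and -0.01 in wild-type replicates 1 to 3. *Pax9*-null replicate 2 was therefore nearer to the wild-type level than the other *Pax9*-null libraries, and it was below wild-type replicate 2. It was the lowest *Pax9*-null library in 64 of the 75 members, compared with 36.1% of all tested genes, and *Pax9*-null replicate 3 was the highest in 59. Wild-type replicate 2 was the highest wild-type library in 62 members and wild-type replicate 1 the lowest in 52.

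Both subunits showed this order. The large subunit stood at 0.23, 0.06 and 0.30 and the small subunit at 0.19, 0.02 and 0.36 in the *Pax9*-null libraries. Cytosolic ribosomal protein genes, at 0.51, 0.34 and 0.45, and nuclear genes of the respiratory chain, at 0.32, 0.16 and 0.36, were likewise lowest in *Pax9*-null replicate 2, whereas the median of all tested genes stayed between -0.01 and 0.01 in every library. The summed erythroid markers were also highest in *Pax9*-null replicates 1 and 3, and all 8 had a difference above 0. Limma called 2 of the 8 higher and voom 4, and 5 were higher at an unadjusted p under 0.05. In the fit without *Pax9*-null replicate 2, in which 26 members were called, all 8 were called higher. Without *Pax9*-null replicate 1 or 3, or without wild-type replicate 1 or 3, 0 erythroid markers were called. Of the 9 cardiomyocyte markers, whose summed level was lowest in wild-type replicate 3, limma and voom called 0, and 0 passed an unadjusted p under 0.05. In the fit without wild-type replicate 3, in which 6 members were called, 3 of these markers were called lower, namely *Myh6* (-1.60), *Myh7* (-1.39) and *Tnnt2* (-0.73). The part of these cell types in the members' differences was not tested.

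**Figure D3:**
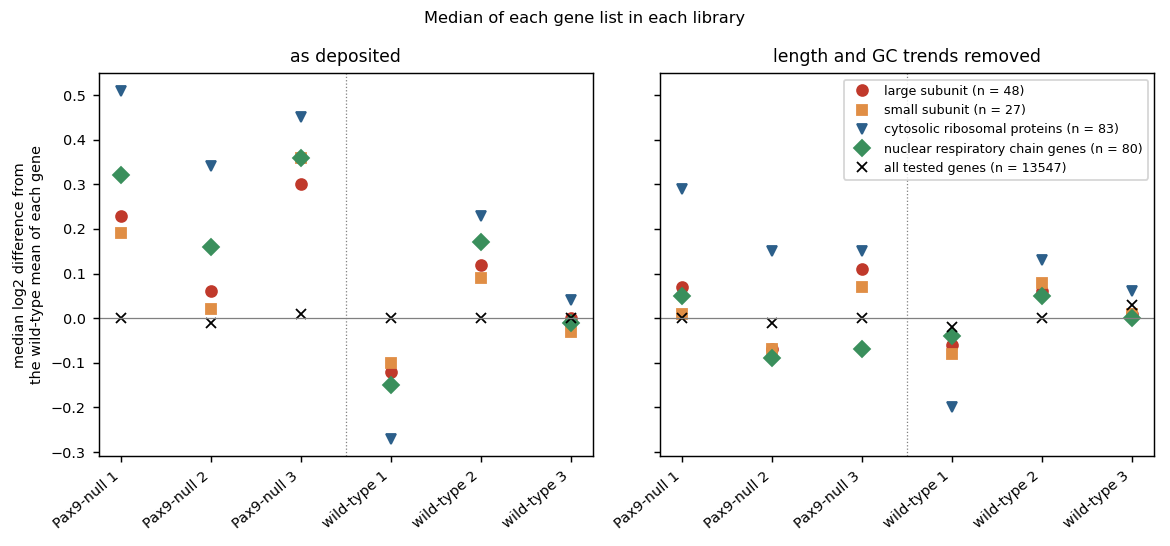
Median over each gene list of the log2 difference from the gene's wild-type mean, for each library, on the deposited values (left) and after removal of length and GC trends (right). On the left both subunits are highest in *Pax9*-null replicate 3 (0.30 and 0.36) and close to the wild-type libraries in *Pax9*-null replicate 2 (0.06 and 0.02), while all tested genes stay near 0. On the right the members lie between -0.08 and 0.11 in every library.

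Members with a lower GC content in their longest transcript had larger differences, and annotated exon length showed no rank relation. Over the 75 members the rank correlation (Spearman's rho) of the log2 difference with GC content was -0.39 and with exon length 0.00, beside -0.44 and -0.40 over all tested genes with an annotation. With the recovered lengths rho was -0.16 for the members and -0.41 for all. These are correlations across genes, which share libraries and are not independent replicates. Of the 25 members with the lowest GC content (38.6% to 46.7%), 12 rose (48.0%) and the median difference was 0.29. Of the 25 in the middle 6 rose (24.0%), with a median of 0.21. Of the 25 with the highest GC content (52.2% to 60.4%) 3 rose (12.0%), with a median of 0.09. Over all tested genes 14.7% rose. After both trends were removed, as fitted on all genes, the members' difference ran with exon length (rho 0.70). Its rho with GC content was then -0.31. The 2 members then called lower, *Mrpl27* (-0.53, adjusted p = 0.0233) and *Mrps21* (-0.56, adjusted p = 0.0449), have short annotated exons of 985 and 739 bases. *Mrpl27* was at -0.02 ± 0.11 on the deposited values, and 22.3% of its stretches of 50 bases occur in other genes.

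**Figure D4:**
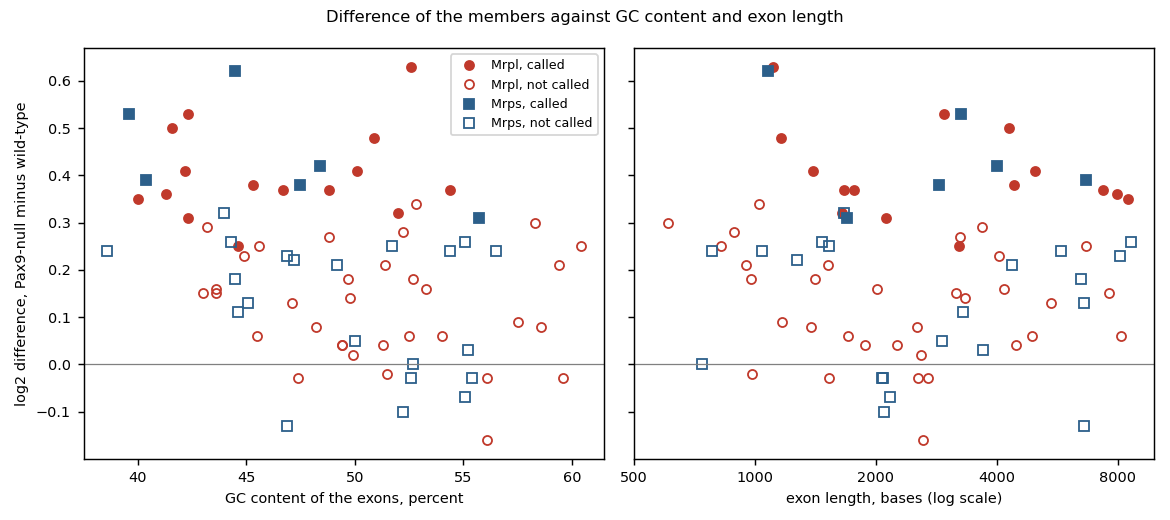
Log2 difference (*Pax9*-null minus wild-type) of the 75 members against the GC content of the exons of their longest transcript (left) and their annotated exon length on a log scale (right), circles for Mrpl and squares for Mrps, filled where called. Differences are larger at low GC content (rho -0.39), with no slope against length (rho 0.00).

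Other genes of the mitochondrial translation machinery moved in both directions, where 14.7% of all tested genes rose and 12% fell. Of 5 mitoribosomal proteins with other symbols, *Ptcd3* (0.32 ± 0.09, adjusted p = 0.0612) and *Chchd1* (0.61 ± 0.20, adjusted p = 0.0798), both of the small subunit, rose, and the median was 0.28. With length and GC trends removed *Chchd1* was at -0.03 and *Ptcd3* at 0.22, neither called. All 5 were above 0. Of the 2 ribosomal RNAs of the organelle 0 were called by limma (1 at an unadjusted p under 0.05 and 1 by voom), with *mt-Rnr1* of the small subunit at 0.22 ± 0.19 and *mt-Rnr2* of the large subunit at 0.56 ± 0.21 (adjusted p = 0.105). Both turned after removal of length and GC trends, *mt-Rnr1* to -0.78 (adjusted p = 0.0622, called lower) and *mt-Rnr2* to -0.24. Of 12 translation factors 1 rose (8.3%) and 2 fell, with a median of 0.08. The risen one was *Mtrf1*, of the release factor family (0.39 ± 0.10, adjusted p = 0.0513). Without *Pax9*-null replicate 1 or 3, limma called 0 genes in each of these lists and in those of assembly genes, synthetases and biogenesis regulators. Without wild-type replicate 1 or 3, 0 of the 5 proteins with other symbols were called.

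*Tufm*, the elongation factor that delivers transfer RNA to the mitochondrial ribosome, fell. It was at 5.49, 5.70 and 5.73 log2 RPKM in the *Pax9*-null and 6.07, 6.09 and 5.92 in the wild-type libraries, without overlap (-0.39 ± 0.10, adjusted p = 0.0475). *Oxa1l*, which inserts newly made proteins into the inner membrane, was at 3.78, 3.83 and 3.69 against 4.22, 4.0 and 3.95 (-0.29 ± 0.10, adjusted p = 0.087). After removal of length and GC trends *Tufm* was still called lower (-0.35, adjusted p = 0.0779), whereas *Oxa1l* (-0.13) and *Mtrf1* (0.13) were not called.

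Of 25 genes for ribosome assembly and ribosomal RNA maturation 4 rose (16.0%, near the 14.7% of all tested genes) and 0 fell by limma, with a median of 0.07. At an unadjusted p under 0.05, 2 of them were lower, and voom called 1 lower. The 4 were *Fastkd2* (0.48 ± 0.11), *Malsu1* (0.47 ± 0.16), *Mterf3* (0.46 ± 0.14) and *Gtpbp10* (0.40 ± 0.11). They were at 0.22 to 0.33 after removal of length and GC trends, and 0 were called. Mitochondrial aminoacyl-tRNA synthetases, which charge the transfer RNAs, went both ways. Of 17 tested, 3 rose (17.6%) and 3 fell, beside 14.7% and 12% of all tested genes. *Yars2* (0.43 ± 0.09), *Nars2* (0.39 ± 0.12) and *Lars2* (1.74 ± 0.61) rose, and *Sars2* (-0.57 ± 0.11), *Vars2* (-0.57 ± 0.15) and *Aars2* (-0.42 ± 0.13) fell. *Lars2* varied widely, at 5.49, 6.57 and 5.47 against 2.94, 3.85 and 5.53, and its groups overlapped. Of these 6, *Yars2* alone was called after removal of length and GC trends (0.32, adjusted p = 0.0925), with *Aars2* at -0.05, *Vars2* at -0.17 and *Sars2* at -0.25. Of 13 regulators of mitochondrial biogenesis 1 rose (7.7%) and 1 fell. *Tfam*, the packaging and transcription factor of mitochondrial DNA, rose (0.29 ± 0.09, adjusted p = 0.0739). *Pprc1*, a coactivator of nuclear genes for mitochondrial proteins, fell (-0.47 ± 0.15, adjusted p = 0.0798). They were at 0.18 and -0.09 after removal of length and GC trends, neither called.

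Genes for the products of the ribosome and for its cytosolic counterpart were also raised. Of 13 protein-coding genes of mitochondrial DNA 11 were listed, and 8 of these rose (72.7%, beside 14.7% of all tested genes), with a median difference of 0.59. The largest differences, of *mt-Atp6* (2.74), *mt-Co3* (2.37) and *mt-Co2* (1.92), started from low wild-type means. These were 0.25, 1.93 and 0.59 log2 RPKM, beside 9.17 for *mt-Co1*. Of 80 nuclear respiratory chain genes 32 rose (40%) and 1 fell, with a median of 0.29, and of 83 cytosolic ribosomal protein genes 46 rose (55.4%), with a median of 0.44. These shares were not tested against that of the members. Without *Pax9*-null replicate 1 the calls numbered 5, 0 and 2, without *Pax9*-null replicate 3 they numbered 2, 0 and 1, and without wild-type replicate 1 or 3 the cytosolic genes gave 21 and 17 and the nuclear respiratory chain genes 13 and 14. After removal of length and GC trends 1 respiratory chain gene was called higher and 8 lower, and 3 cytosolic genes higher and 1 lower, and 1 mitochondrially encoded gene higher. The medians were then -0.13, -0.01 and 0.19, in the order given above, beside 0.01 for the large and -0.02 for the small subunit of the mitochondrial ribosome.

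**Figure D5:**
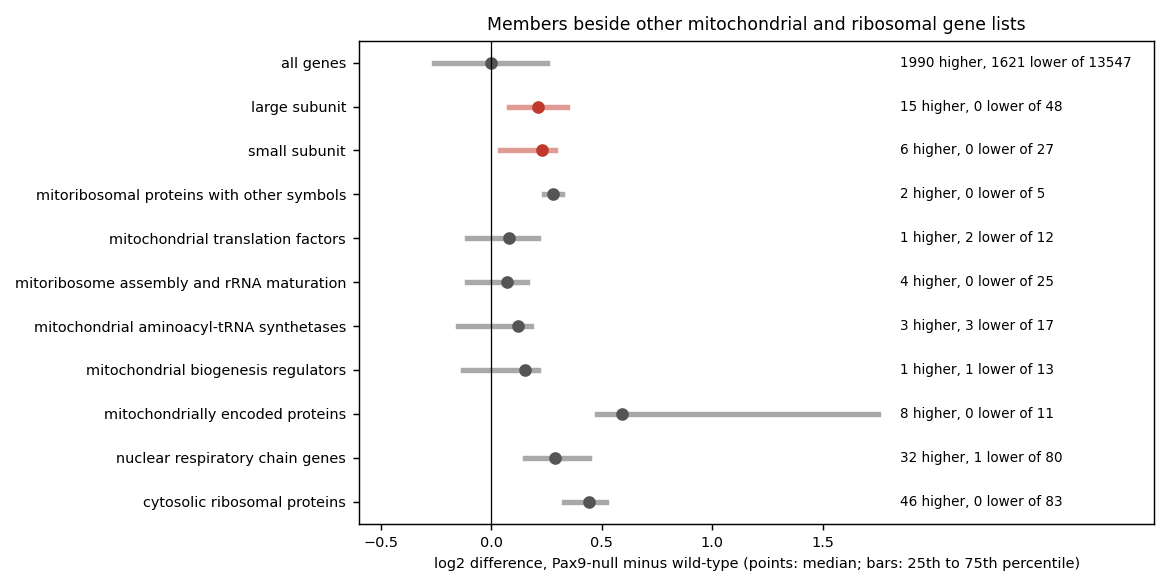
Median (point) and 25th to 75th percentile (bar) of the log2 difference for each gene list, with the number of genes called higher and lower beside it. Both subunits (red, medians 0.21 and 0.23, or 0.01 and -0.02 after removal of length and GC trends) lie above all genes and below the cytosolic ribosomal proteins (0.44), whereas translation factors (0.08) and assembly genes (0.07) lie nearer to 0.

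A large share of the members stand head to head with another gene. Within 1000 bases of the start, 32 of the 75 members (42.7%) had a protein-coding gene on the other strand pointing away, against 16.2% of the 12066 tested protein-coding genes. The start sites lay apart for 17 of these members, and for 15 the genes overlapped at their starts. The 28 tested partners that were no members had a median difference of -0.06, with 5 called higher (17.9%) and 6 lower (21.4%), beside 14.7% and 12% of all tested genes. Without *Pax9*-null replicate 1 or 3, 0 partners were called, and without wild-type replicate 1 or 3 the counts were 5 and 3. In 13 of 29 distinct pairs (44.8%) the log2 ratio of the member to its partner did not overlap between the genotypes (exact permutation p = 0.1 for each, two-sided, the smallest that 3 against 3 can give). The same was seen in 40.1% of 823 head-to-head pairs without a member, a share near that of the members.

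*Mrps12*, the decoding-site protein of the small subunit, and *Sars2* share a stretch of 172 bases between their starts. *Mrps12* was at 4.65, 4.78 and 4.90 log2 RPKM in the *Pax9*-null and 4.40, 4.63 and 4.59 in the wild-type libraries, without overlap but not called (0.24 ± 0.10, adjusted p = 0.139). *Sars2* was at 1.88, 1.86 and 1.96 against 2.55, 2.45 and 2.44, and fell (adjusted p = 0.0339). The genes on either side of this stretch thus differed in sign. After removal of length and GC trends the values were -0.05 and -0.25, neither called. *Mrpl51* (0.23 ± 0.11, not called) and its neighbour *Ncapd2* (-0.63 ± 0.13, adjusted p = 0.0359) also differed in sign, with 100 bases between them. *Mrpl40* and *Hira*, 175 bases apart, were at 0.37 and -0.02 ± 0.14. By contrast, *Mrpl32* and the proteasome gene *Psma2* (0.35 ± 0.11, adjusted p = 0.075), 75 bases apart, both rose, as did *Mrpl47* and *Ndufb5* (0.44 ± 0.12, adjusted p = 0.0581). About 24.2% of the exon sequence of *Mrpl47* overlaps *Ndufb5* or *Actl6a*, and how reads of that stretch were counted was not examined.

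The 150 bases before the RefSeq start of *Mrps12*, on the strand of the gene (GRCm38.p6, chr7:28741822-28741971, minus strand), are shown because a member and a gene that fell stand on either side of them. They hold none of the motifs searched below.
Mrps12: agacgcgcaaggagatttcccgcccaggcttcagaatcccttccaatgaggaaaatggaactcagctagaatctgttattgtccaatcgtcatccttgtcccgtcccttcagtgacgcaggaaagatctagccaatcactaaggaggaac

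Promoters were searched, from 250 bases before to 50 bases after the RefSeq start and on both strands, for letters known as binding motifs of factors that act on nuclear genes for mitochondrial proteins. A promoter was listed for 67 members. The motif of nuclear respiratory factor 1 (NRF1), GCGC and TGCGC with any base between them, was in 19.4% of them, beside 9.8% of the promoters of tested genes and 4.6% of all promoters. The ETS motif CCGGAAG, read by GABPA among others, was in 32.8%, beside 17.1% and 8.9%. The YY1 motif ATGGCGGC was in 16.4%, beside 4.7% and 2.2%. The NRF1 letters were in 4 of 19 promoters of members that rose (21.1%) and 9 of 48 of members that were not called (18.8%), the ETS letters in 31.6% and 33.3%, and the YY1 letters in 2 of 19 (10.5%) and 9 of 48 (18.8%). These shares were not tested against each other. A match of letters is a description and not a bound site.

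The called members with a match in the 150 bases before the start are shown with 30 bases around the match, 5′ to 3′ on the strand of the gene, with the match in capitals. *Mrpl57*, *Mrpl32*, *Mrpl44* and *Mrpl30* hold the NRF1 letters at 57, 87, 35 and 83 bases before the RefSeq start. *Mrpl52* and *Mrps22* hold the ETS letters at 47 and 11 bases. The RefSeq start of *Mrpl32* lies 128 bases from the annotated start, and its bases shown fall within the annotated gene (chr13:14608184-14613165). The head-to-head distances above used annotated starts. Positions are GRCm38.p6 chr14:57826172-57826201 (plus strand), chr13:14613105-14613134 (minus), chr1:79775973-79776002 (plus), chr1:37890384-37890413 (plus), chr14:54426851-54426880 (plus) and chr9:98601680-98601709 (minus).
Mrpl57: tttgaatcctGCGCAGGCGCagaaggcgtc
Mrpl32: tttgacccttGCGCATGCGCaagaggggcc
Mrpl44: agaagcacttGCGCACGCGCagtacactag
Mrpl30: tgacgccgctGCGCCTGCGCtgtcttctat
Mrpl52: caagatgtcggCTTCCGGttttcccggcag
Mrps22: tgcacaaaaacctctcgagCCGGAAGttgc
Of these, *Mrpl44* (0.32 ± 0.10, adjusted p = 0.0738) and *Mrpl30* (0.25 ± 0.09, adjusted p = 0.0926) showed smaller rises than *Mrpl52* and *Mrpl57*. *Mrpl30* stands 66 bases from *Mitd1*, which rose by more than its neighbour (0.51 ± 0.11, adjusted p = 0.0413).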

How the data were processed

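RNA of 3 *Pax9*-null and 3 wild-type E9.5 pharyngeal arch regions was measured by RNA-seq. The authors deposited log2 RPKM values for 14647 genes. According to the study's methods and the submitters' processing notes, read pairs were trimmed (Trimmomatic 0.32), mapped to GRCm38 (STAR, given as 2.5.1a in the notes and as another release in the methods), reduced to uniquely mapped, non-redundant pairs, sub-sampled towards the smallest library and counted per gene (featureCounts 1.5.1). Removal of duplicate pairs can lower the values of short, abundant genes. The labels describe another library protocol, for sorted cells, than the methods, which were followed here. The function that made the log2 values is not given in the sources used here.

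The main test was limma 3.58.1 in R 4.3.3 (empirical Bayes with a mean trend, two-sided) on the deposited log2 values, for genes that averaged 0.5 RPKM or more, with Benjamini-Hochberg adjustment over 13547 genes. The study used voom on counts with the same threshold of 0.1. Reads were recovered from the log2 RPKM values: 82.7% of values were whole within 0.05 reads at the exon length of GENCODE M21 with a prior of 0.5, and of 14622 annotated genes 2800 were whole in all libraries at another length, taken as the authors' divisor, and 2 at none. Of the members, 61 were whole at the annotated length and 14 at another. The recovered reads served for voom only. Trends were fitted per library as natural splines (5 degrees of freedom each) of log2 exon length and GC content, both from GENCODE M21 on GRCm38. Exon length was that of all exons of a gene joined, and GC content that of its longest transcript, unless coding transcripts are named. The script was tested on simulated data. Promoter sequences came from RefSeq (GRCm38.p6).

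With 3 embryos per genotype an exact permutation test cannot give a p under 0.1. Genes were named by a fixed rule: in each subunit up to 8 rises and 6 falls, by size, of called members without overlap, the 3 highest and 2 lowest members by level, members called lower, called in all leave-one-out fits or called after trend removal, *Mrpl40*, *Mrps18a*, *Mrps30*, *Mrps36* and called genes of companion lists. *Mrpl4*, *Mrps5*, *Mrpl36*, *Mrps12*, *Mrpl44*, *Mrpl30*, *Mrpl51* and the head-to-head partners were chosen after their values were seen. The members and all lists were chosen with earlier results of these data known.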

Additional observations from a re-analysis of the deposited data

How the results depend on the processing

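The 21 calls among the members were the same genes with a pseudocount of 0.1 or 1 RPKM, without a filter, and with voom on the recovered reads. Quantile normalization left 8 large and 4 small subunit genes called higher, and eBayes without a mean trend 6 and 4. An adjusted p of at most 0.05 left 2 large subunit genes, 1 small subunit gene and 1335 genes in all. Removal of length and GC trends gave 515 genes called in all, 0 members higher, 1 lower in each subunit, and medians of 0.01 (large) and -0.02 (small). The following 4 alternatives were chosen after seeing the data. Length trends alone gave 9 large and 4 small subunit genes higher, 10 large and 4 small subunit genes lower, and medians of 0.06 and 0.04. GC trends alone gave 1389 genes in all, with 6 large and 3 small subunit genes higher. Trends of the longest coding transcript gave 733 genes in all, 0 members higher, 7 large and 4 small subunit genes lower, and medians of -0.02 and -0.09. Trends at the lengths recovered from the deposited values gave 746 genes in all, 0 members higher, 4 large and 2 small subunit genes lower, and medians of 0.02 and -0.00. The cause of these changes was not tested.

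The deviations of same-numbered libraries had correlations of -0.02, -0.17 and 0.26, and those of differently numbered libraries ran from -0.35 to 0.36. With 3 libraries per genotype these correlations cannot decide whether the numbers mark a pairing. With a replicate block, 3 large and 1 small subunit genes and 1377 genes in all were called, and with the replicate block and both trends removed 228 genes in all, 0 members higher, 1 lower in each subunit, at medians of 0.01 and -0.02. With 1 library left out, genes called ranged from 175 to 3578, large subunit rises from 0 to 19, small subunit rises from 0 to 7, and the medians from 0.14 to 0.27 and from 0.14 to 0.31.

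Some named members changed sign. With both trends removed, *Mrps18c* was at -0.10, *Mrps21* at -0.56 and *Mrps36* at -0.32, with or without the replicate block. With coding transcript trends removed, *Mrps18c* was at -0.14, *Mrps21* at -0.64, *Mrps36* at -0.50, *Mrpl20* at -0.13, *Mrpl33* at -0.48, *Mrpl42* at -0.47, *Mrps10* at -0.15, *Mrps15* at -0.04, *Mrps18a* at -0.27 and *Mrps22* at -0.12. With trends at the recovered lengths removed, *Mrpl32* was at -0.47, *Mrpl42* at -0.61, *Mrps16* at -0.41, *Mrps18c* at -0.05, *Mrps21* at -0.53, *Mrps30* at -0.23 and *Mrps36* at -0.28. With length trends alone removed, *Mrps21* was at -0.63 and *Mrps36* at -0.19. With GC trends alone removed, *Mrpl27* was at 0.00 and *Mrpl48* at -0.06. *Mrpl27* was at 0.01 with libraries centred on medians, *Mrps21* at -0.15 with quantile normalization, and *Mrps18a* at -0.01 with library weights. With 1 library left out, *Mrpl27* ranged from -0.10 to 0.05, *Mrpl48* from -0.02 to 0.09, *Mrps18a* from -0.09 to 0.11 and *Mrps21* from -0.03 to 0.06. Members had at least 218 reads per library. How far read depth and the 3 embryos per genotype each limit the calls was not compared.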
